A study of Homo sapiens with 6 samples.

Results

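The genes described here make, sense, move and export cholesterol in FaDu cells, an established cell line of hypopharyngeal squamous cancer. They were set as a list of 29 symbols and matched to 29 of the 58825 Ensembl identifiers of the deposited count table, 1 identifier per symbol. Of the 29, 18 are synthesis enzymes, 5 control the SREBP transcription factors, 2 move cholesterol inside the cell, and 4 belong to the LXR receptors and the exporters they control. RNA was sequenced in 2 groups, both of FaDu cells. The shNSUN2 group (3 libraries) carried a short hairpin RNA against NSUN2, a methyltransferase that places 5-methylcytosine on RNA, and the FaDu group (3 libraries) carried no hairpin. A control hairpin was not analysed here, so loss of NSUN2, the hairpin and its delivery cannot be told apart. The labels do not say whether the hairpin cells were a clone or a pool, nor whether replicates were separate cultures, so p-values measure only the spread between these libraries.

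Cholesterol is built from acetyl-CoA through mevalonate, isoprenoid units, squalene and lanosterol. When sterols in the endoplasmic reticulum run low, SCAP escorts the SREBP factors, encoded by SREBF1 and SREBF2, to the Golgi for cleavage, and their released parts switch on the enzymes of the whole route. INSIG1 and INSIG2 hold SCAP back when sterols are plentiful. Oxysterols in turn activate the liver X receptors (LXR, encoded by NR1H2 and NR1H3), which switch on ABCA1 and ABCG1, the pumps that pass cholesterol out of the cell. In cells with excess sterol the first set is therefore known to be low and the second high, and the reverse when sterol is scarce.

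Totals per library ran from 53612358 to 72788971 estimated counts. NSUN2 itself had 156 to 173 CPM (counts scaled to a common library total after TMM scaling) in FaDu and 34.7 to 50.4 in shNSUN2, where its mean was 25.1% of the FaDu level (exact two-sided permutation p = 0.1, the smallest that 3 against 3 allow). All 10 squamous epithelial markers examined were above 1 CPM in both groups, and their sum was 5677 to 5775 CPM in FaDu and 3608 to 4068 in shNSUN2. Every shNSUN2 library was below every FaDu library for 7 of the 10 (the basal keratin KRT5 at 1020 to 1334 against 487 to 636 CPM, KRT14 at 101 to 113 against 18.8 to 30.2) and above for 2, PERP and EPCAM. Of the 9 leukocyte genes, CD14 was above 1 CPM, at 8.18 to 10.3 in FaDu and 8.96 to 11.5 in shNSUN2, and 3 were at 0 in every library, the general leukocyte marker PTPRC among them. The shNSUN2 libraries held more of some foreign cell type markers than FaDu: the 8 prostate genes summed to 53.8 to 70.4 against 31.2 to 33.8 CPM and the 5 plasma cell genes to 1.90 to 5.11 against 0 to 0.267 CPM. The 6 smooth muscle genes summed to 28.6 to 41.3 against 28.3 to 32.8 CPM, most of it SMTN. For 3 of the 6 (MYH11, ACTG2 and DES) every shNSUN2 library was above every FaDu library, and replicate 1 was the highest. MYH11 was at 8.29, 1.53 and 1.39 CPM in shNSUN2 replicates 1, 2 and 3, against 0.948 to 1.06 in FaDu. The part of these markers in the sterol results was not tested. In bulk RNA, fewer cells of a kind and less RNA per cell cannot be told apart.

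All 29 genes passed the filter on low counts and were tested with the other genes in 1 edgeR fit (quasi-likelihood test, with the threshold set at 0.05 on p-values adjusted by Benjamini-Hochberg over 19081 genes). Of the 29, 10 fell in shNSUN2 and none rose. The genes that fell were HMGCS1, IDI1, SQLE, CYP51A1, MSMO1, INSIG1, SREBF2, STARD4, NPC1 and ABCA1, and each of the 6 role groups held at least 1. Over all genes tested, 9.97% were called lower and 8.54% higher. At an unadjusted p under 0.05, 15 of the 29 were lower and 3 higher, beside 17.3% and 16.4% of all genes. DESeq2 called 12 lower and 2 higher (NSDHL and NR1H2), against 13.0% and 12.3% of all genes, and limma voom called 11 lower and none higher, against 10.6% and 8.34%. The median log2 fold change of the 29 was -0.337, beside -0.007 over all genes tested. Every shNSUN2 library was below every FaDu library for 15 of the 29, beside 22.1% of all genes, and above for 5, beside 20.3%.

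**Figure D1:**
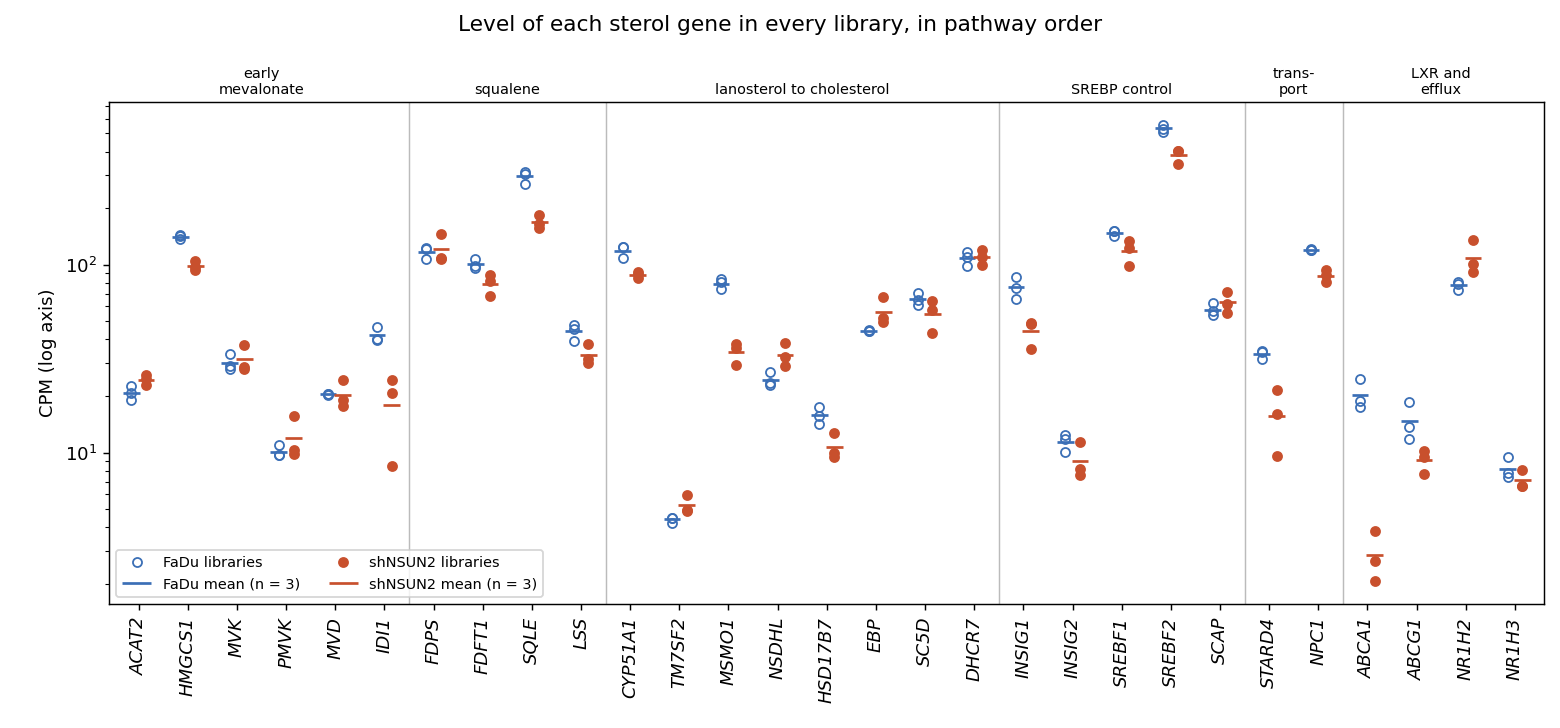
CPM of each of the 29 sterol genes (log axis) in the 3 FaDu libraries (open blue) and the 3 shNSUN2 libraries (filled red), with group means as bars, in pathway order. ABCA1 shows the widest gap, from 17.6 to 24.6 CPM in FaDu to 2.06 to 3.84 in shNSUN2, while MVD, FDPS and DHCR7 overlap.

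How many of the 29 were called changed when 1 library was left out, and so did the share of all genes called. Each of these fits also had fewer libraries in 1 group, and the part of that in the lost calls was not tested. Without FaDu replicate 1, 2 or 3, 3, 3 and 4 of the 29 were called lower, beside 4.8%, 4.38% and 4.38% of all genes. Leaving out shNSUN2 replicate 1 gave 5, beside 5.95%, and leaving out shNSUN2 replicate 2 gave 9, beside 9.08%. Leaving out shNSUN2 replicate 3 gave 10, beside 11.0%. All 10 kept a log2 fold below 0 in each of 16 alternative fits, and SQLE, MSMO1 and ABCA1 passed the threshold in all 16. For each of the 10, every shNSUN2 library was below every FaDu library, so leaving out 1 library could hardly change a direction. The kept directions are therefore no added support.

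**Figure D2:**
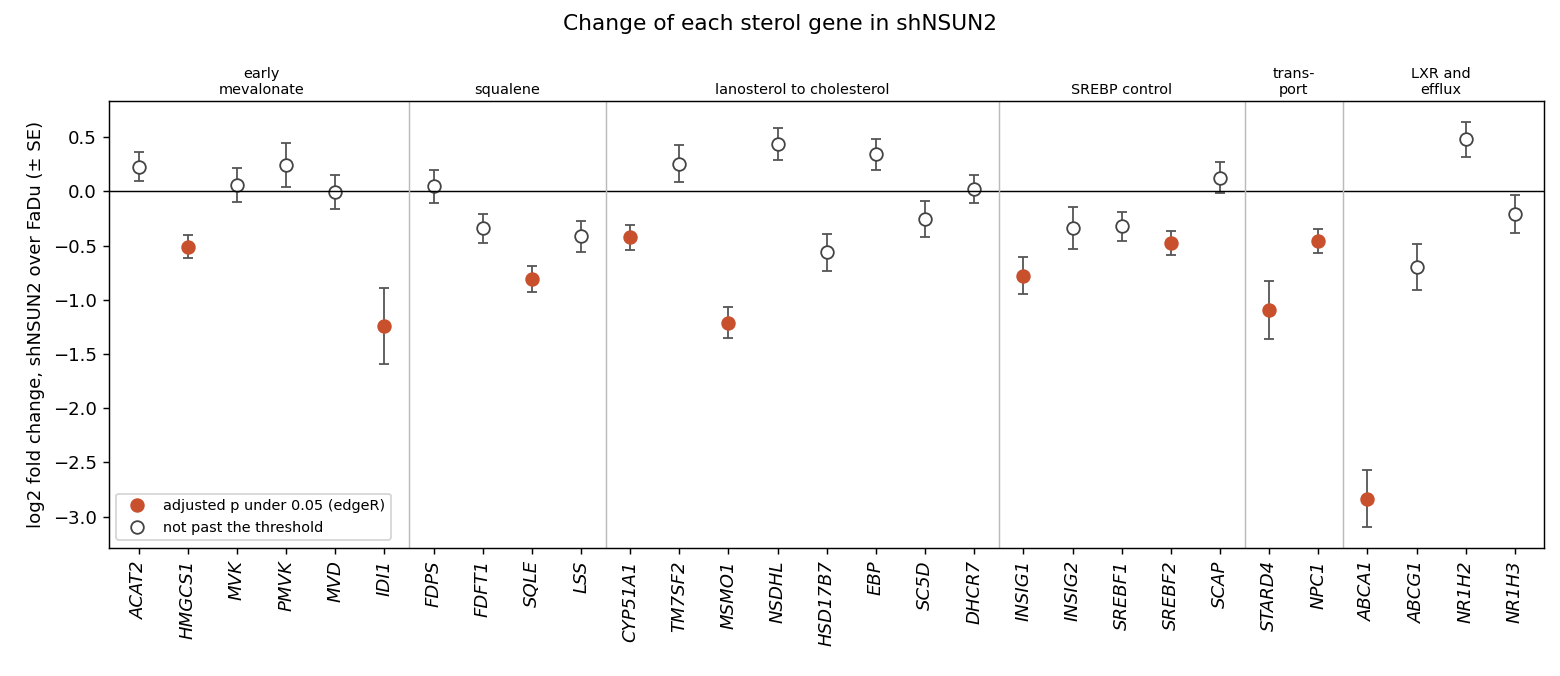
Log2 fold change of each gene, shNSUN2 over FaDu, with its SE, in pathway order. Filled red points are the 10 genes called lower by edgeR and open points are the 19 not called, which run from -0.697 (ABCG1) to 0.482 (NR1H2).

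Among the 6 genes of the early mevalonate steps, HMGCS1 and IDI1 fell and the other 4 did not pass the test. HMGCS1 (ENSG00000112972, chr5:43289395-43313512, GRCh38) condenses acetoacetyl-CoA with acetyl-CoA into HMG-CoA. FaDu libraries held it at 143, 143 and 137 CPM, and those of shNSUN2 at 94.1, 105 and 97.9. The groups were well apart and each was tight, so that a decrease to 70.1% of the FaDu level passed the test (log2 fold -0.512, SE 0.106, with an edgeR adjusted p of 0.0158). The call was lost when any 1 FaDu library, or shNSUN2 replicate 1, was left out. IDI1 (ENSG00000067064, chr10:1039152-1049170), which turns isopentenyl diphosphate into its reactive isomer, had 40.4, 46.8 and 39.9 CPM in FaDu. In shNSUN2 it had 8.45, 20.8 and 24.4 CPM, with replicate 1 well under the other two. Its mean fell to 42.2% of FaDu (log2 fold change -1.24, SE 0.351, edgeR adjusted p = 0.0474). Without shNSUN2 replicate 1 the log2 fold was -0.901 and still called, and without shNSUN2 replicate 2 or 3 or any 1 FaDu library it was -1.53 to -1.17 and no longer called.

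The other 4 early genes were not called. ACAT2, the cytosolic thiolase that makes acetoacetyl-CoA, was at 19.1 to 22.7 CPM in FaDu and 22.9 to 25.8 in shNSUN2 (log2 fold 0.23, SE 0.131), not past the test. Its exons share 397 bases with TCP1 on the opposite strand, whose counts are far higher, and strand was not stated for these libraries. The exons of ACAT2 also share 1141 bases with SOD2 and 1458 with SOD2-OT1 on that strand, and no counts were found for either. PMVK, phosphomevalonate kinase, was at 9.66 to 10.9 CPM in FaDu and at 10.4, 9.87 and 15.6 in shNSUN2, where replicate 3 stood above all others. PMVK, the mevalonate kinase MVK and the decarboxylase MVD overlapped between the groups, at log2 folds of 0.242 (SE 0.205), 0.06 (SE 0.159) and -0.005 (SE 0.155). In all 3 of these, shNSUN2 replicate 3 was the highest library of its group. Exons of MVK share 306 bases with MMAB on the opposite strand (6189 estimated counts, beside 11827 for MVK).

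Of the 4 genes from isoprenoid coupling to lanosterol, SQLE fell. SQLE (ENSG00000104549, chr8:124998497-125022283) is squalene epoxidase, a rate-limiting enzyme of the later route. It was the most abundant enzyme of the 18 per kilobase of exon, at 68.5 ± 5.16 CPM per kb in FaDu and 39.2 ± 3.14 in shNSUN2 (SD, n = 3). Its CPM were 306, 310 and 270 in FaDu and 165, 184 and 157 in shNSUN2. The shNSUN2 mean was 57.1% of the FaDu mean with no overlap, and the log2 fold of -0.808 (SE 0.116, edgeR adjusted p = 0.00398) stayed between -0.885 and -0.75 in the 16 alternative fits.

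LSS, which closes squalene epoxide into lanosterol, had 39.5 to 47.7 CPM in FaDu and 30.2 to 38.0 in shNSUN2, with no overlap but a log2 fold of -0.412 (SE 0.142, edgeR adjusted p = 0.0819) that missed the threshold. It was called in 4 of the 16 alternatives. FDFT1, squalene synthase, also lay lower without overlap, at 96.2 to 107 CPM against 68.5 to 87.9 (log2 fold -0.341, SE 0.131, edgeR adjusted p = 0.111). FDPS, which makes farnesyl diphosphate for sterols and for protein prenylation, overlapped at 107 to 123 against 107 to 146 CPM (log2 fold 0.047, SE 0.151).

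Of the 8 enzymes from lanosterol to cholesterol, MSMO1 and CYP51A1 fell. MSMO1 (ENSG00000052802, chr4:165327623-165343160) starts the removal of the C4 methyl groups of lanosterol. Its CPM were 80.5, 83.5 and 73.9 in FaDu and 36.1, 37.7 and 29.1 in shNSUN2, a 2.31-fold lower level with no library near the other group (log2 fold change -1.21, SE 0.14, edgeR adjusted p = 0.00182). CYP51A1 (ENSG00000001630, chr7:92112151-92134803), the lanosterol demethylase, had 124, 124 and 108 CPM in FaDu and 84.7, 89.1 and 91.1 in shNSUN2. CYP51A1 shares 79.4% of its exonic bases with AC000120.2 on the same strand, for which no counts were found. Its decrease to 74.5% of FaDu passed the test (log2 fold -0.424, SE 0.114, edgeR adjusted p = 0.0371) but was lost in 8 of the 16 alternatives, among them the fits that left out any 1 FaDu library or shNSUN2 replicate 1 or 2.

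NSDHL and HSD17B7 act with MSMO1 in removing the C4 methyl groups, and neither passed the test. NSDHL, which takes the next step after MSMO1 at the same C4 carbon, had 23.0 to 27.0 CPM in FaDu and 29.02 to 38.1 in shNSUN2 (log2 fold 0.437, SE 0.148, edgeR adjusted p = 0.0768). HSD17B7, the reductase that completes that demethylation, was at 14.2 to 17.5 against 9.41 to 12.6 CPM (log2 fold -0.562, SE 0.17, edgeR adjusted p = 0.0546). The groups did not overlap in either gene, with NSDHL above FaDu and HSD17B7, like MSMO1, below it. HSD17B7 was called lower in 6 of the 16 alternatives. HSD17B7 counts are uncertain, since its near copy HSD17B7P2 held 811 estimated counts over the 6 libraries beside 5091 for the gene.

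The other 4 enzymes of this group were not called. EBP, the sterol isomerase, was above FaDu in every shNSUN2 library (44.2 to 44.7 against 49.7 to 67.3 CPM, log2 fold 0.344, SE 0.144, edgeR adjusted p = 0.137). TM7SF2, the C14 reductase that follows CYP51A1, was low in both groups (4.24 to 4.50 against 4.91 to 5.91 CPM). SC5D, the C5 desaturase, and DHCR7, the reductase of the final step, overlapped at log2 folds of -0.256 (SE 0.164) and 0.023 (SE 0.125). DHCR7 changed sign in 8 of the 16 alternatives, with every value within 0.092 of 0.

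The 18 enzymes together summed to 1318, 1320 and 1207 CPM in FaDu and 929, 1027 and 1042 in shNSUN2, or 78.0% of the FaDu mean. SQLE gives the largest share of that sum. By count, 10 of the 18 had a log2 fold below 0 and 8 above, with a median of -0.13, and 5 fell, beside the 9.97% of all genes called lower, while 13 did not pass the test. Differences between enzymes were not tested.

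The upstream DNA of the enzymes is shown because SREBP proteins bind sterol regulatory elements there together with NF-Y and Sp1. RefSeq promoters (GRCh38.p14) were found for 25 of the 29 genes and the 250 bases before each start were searched on both strands. The sequences below are those of the called synthesis genes with an entry, and MVD as the uncalled synthesis gene whose fold was nearest 0. Capitals mark the NF-Y box CCAAT on either strand and the sterol element letters TCACNCCA.
HMGCS1 (chr5:43313413-43313662, minus strand): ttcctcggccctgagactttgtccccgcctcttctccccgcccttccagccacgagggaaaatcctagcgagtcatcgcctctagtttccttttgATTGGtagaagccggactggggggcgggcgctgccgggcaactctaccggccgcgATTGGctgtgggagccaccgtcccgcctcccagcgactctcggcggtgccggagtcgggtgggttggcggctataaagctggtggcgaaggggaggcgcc
IDI1 (chr10:1049120-1049369, minus strand): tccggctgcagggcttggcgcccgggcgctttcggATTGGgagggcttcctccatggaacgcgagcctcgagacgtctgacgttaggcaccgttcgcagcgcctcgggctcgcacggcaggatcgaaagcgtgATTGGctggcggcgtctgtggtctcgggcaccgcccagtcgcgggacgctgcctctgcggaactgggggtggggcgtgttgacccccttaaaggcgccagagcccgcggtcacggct
MSMO1 (chr4:165327419-165327668, plus strand): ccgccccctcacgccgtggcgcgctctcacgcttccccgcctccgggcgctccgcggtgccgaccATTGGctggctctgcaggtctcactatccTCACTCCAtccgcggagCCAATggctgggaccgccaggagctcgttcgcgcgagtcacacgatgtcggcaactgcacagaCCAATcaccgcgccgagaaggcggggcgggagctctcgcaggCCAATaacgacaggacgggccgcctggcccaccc
CYP51A1 (chr7:92134478-92134727, minus strand): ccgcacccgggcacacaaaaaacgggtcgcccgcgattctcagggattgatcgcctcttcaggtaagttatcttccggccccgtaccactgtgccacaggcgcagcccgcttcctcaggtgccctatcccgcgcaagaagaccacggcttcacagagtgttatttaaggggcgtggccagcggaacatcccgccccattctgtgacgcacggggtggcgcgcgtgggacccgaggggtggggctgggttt
MVD (chr16:88663092-88663341, minus strand): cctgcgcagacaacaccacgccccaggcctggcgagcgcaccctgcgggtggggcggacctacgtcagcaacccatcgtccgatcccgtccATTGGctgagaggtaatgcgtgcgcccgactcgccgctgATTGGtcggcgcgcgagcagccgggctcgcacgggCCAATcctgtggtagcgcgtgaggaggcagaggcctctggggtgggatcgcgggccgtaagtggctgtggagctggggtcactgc
The windows shown of HMGCS1, IDI1 and MSMO1 hold 2, 2 and 4 CCAAT boxes, and that of MVD holds 3, so the box is present beside genes that fell and beside one that did not. The table lists further windows for IDI1, with 3 and 0 boxes, and for HMGCS1, with 0, and the one shown is that nearest to the GENCODE start. CYP51A1 has neither set of letters in this window. The windows of these 5 genes end at the RefSeq start and run into the gene as GENCODE annotates it, since its outermost start lies further upstream. That of CYP51A1 lies wholly inside the gene so annotated and holds no bases before that outermost start. MSMO1 has the sterol element letters 156 bases before its start, next to a CCAAT box at 139 bases.

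Across the list, CCAAT was in at least 1 window of 17 of the 25 genes, beside 37.0% of all 27305 genes with a promoter in the table, and in 13 of the 15 synthesis enzymes with an entry. Among genes called lower it was in 6 of 9 and among those not called in 11 of 16. The Sp1 box GGGCGG was in 24 of the 25, beside 46.2%. The longer sterol element TCACNCCAC was in 1 gene, SREBF2, beside 1.09% of all genes, and TCACNCCA, which it contains, was in MSMO1, MVK and SREBF2, beside 3.92%. A palindromic E-box CACGTG was in 4 genes, beside 7.73%. These are matches of letters and not measured sites. The 27305 genes were not limited to those tested here, whereas the genes of the list all passed the filter on low counts. The shares are therefore not matched for expression.

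Of the 5 genes of SREBP control, INSIG1 and SREBF2 fell. SREBF2 (ENSG00000198911, chr22:41833079-41907308) encodes SREBP-2, the factor that drives cholesterol synthesis and that is known to bind its own promoter. Per kilobase of exon it had the highest mean level of the 29 genes, at 70.4 ± 3.06 CPM per kb in FaDu (SQLE, the next, lay within this spread) and 50.7 ± 4.67 in shNSUN2. Its CPM were 557, 530 and 511 in FaDu and 343, 403 and 404 in shNSUN2, so that the lowest FaDu library was above the highest shNSUN2 library (log2 fold change -0.474, SE 0.111, edgeR adjusted p = 0.0236). Leaving out any 1 FaDu library or shNSUN2 replicate 1 ended the call. Its promoter is printed because it holds the only match to the longer sterol element of the list (its letters TCACNCCA in capitals), 133 bases before the start, with a CCAAT box on the opposite strand 106 bases before it.
SREBF2 (chr22:41832855-41833104, plus strand): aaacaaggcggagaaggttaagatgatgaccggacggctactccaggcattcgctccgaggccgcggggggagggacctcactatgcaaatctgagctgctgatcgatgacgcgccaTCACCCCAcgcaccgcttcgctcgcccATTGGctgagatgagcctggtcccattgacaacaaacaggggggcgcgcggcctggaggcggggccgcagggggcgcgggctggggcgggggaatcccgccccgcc

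SREBF1, which encodes SREBP-1, the factor more tied to fatty acid synthesis, had 142 to 151 CPM in FaDu and 98.1 to 133 in shNSUN2 (log2 fold -0.323, SE 0.137, edgeR adjusted p = 0.142). It was below FaDu in every library without passing the test. Exons of SREBF1 share 556 bases with RAI1 on the opposite strand (34184 estimated counts, beside 50936 for SREBF1). Per kilobase of exon, SREBF2 was 3.83 ± 0.0877 times SREBF1 in FaDu and 3.47 ± 0.249 times in shNSUN2 (SD, n = 3). SCAP, the escort of both factors, overlapped between groups at 53.7 to 62.9 against 55.3 to 71.9 CPM (log2 fold 0.129, SE 0.139).

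INSIG1 (ENSG00000186480, chr7:155297776-155310235) retains SCAP in the endoplasmic reticulum and is itself a well-known SREBP target. It had 75.3, 86.1 and 65.8 CPM in FaDu and 48.9, 48.3 and 35.4 in shNSUN2. Every shNSUN2 library was under every FaDu library, and the mean fell to 58.4% (log2 fold -0.777, SE 0.17, with an edgeR adjusted p of 0.0188). The call was lost in 2 alternatives, without FaDu replicate 1 or 2. INSIG2, its paralogue, which is not known as an SREBP target in the same way, overlapped at 10.1 to 12.4 against 7.60 to 11.4 CPM (log2 fold -0.337, SE 0.195, edgeR adjusted p = 0.271). Per kilobase, INSIG1 was 7.21 ± 1.06 times INSIG2 in FaDu and 5.37 ± 0.991 times in shNSUN2, and single libraries of the groups overlapped in this ratio (6.03 to 8.07 and 4.59 to 6.49).

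Both transport genes fell. STARD4 (ENSG00000164211, chr5:111496033-111512590) carries cholesterol through the cytosol between membranes. Its CPM were 31.5, 34.6 and 34.5 in FaDu and 16.0, 21.6 and 9.57 in shNSUN2. The FaDu libraries were close to each other while the shNSUN2 libraries spread 2.25-fold from highest to lowest, with replicate 3 lowest (log2 fold change -1.10, SE 0.266, edgeR adjusted p = 0.0268). Without shNSUN2 replicate 3 the gene stayed called, and without any FaDu library or shNSUN2 replicate 1 it did not. NPC1 (ENSG00000141458, chr18:23506184-23586898), the lysosomal membrane protein that releases cholesterol taken up with lipoproteins, had 119, 122 and 120 CPM in FaDu and 87.8, 93.9 and 81.2 in shNSUN2. The FaDu libraries hardly differed, and the mean fell to 72.9% (log2 fold -0.455, SE 0.11, edgeR adjusted p = 0.0265). That call too was lost without any 1 FaDu library or shNSUN2 replicate 1. Exons of NPC1 share 604 bases with RMC1 on the opposite strand (12056 estimated counts, beside 39874 for NPC1).

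Of the 4 LXR and efflux genes, ABCA1 fell, and its decrease was the largest of the 29. ABCA1 (ENSG00000165029, chr9:104781002-104928237) loads cholesterol and phospholipid onto apolipoprotein A-I and is a classical LXR target. It had 18.8, 17.6 and 24.6 CPM in FaDu and 2.66, 3.84 and 2.06 in shNSUN2. The highest shNSUN2 library lay far under the lowest FaDu library, and the mean fell to 14.1%, 7.13-fold lower (log2 fold -2.83, SE 0.265, with an edgeR adjusted p of 0.000849). The log2 fold ran from -3.10 to -2.64 in the 16 alternative fits and was called in each. Of all genes tested, 5.86% were called lower by at least 2-fold, and of the 29 genes ABCA1, IDI1, MSMO1 and STARD4 were.

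ABCG1, which passes cholesterol to HDL particles, lay in the same direction at 11.9 to 18.7 CPM against 7.66 to 10.1 (log2 fold -0.697, SE 0.208). Its edgeR adjusted p of 0.0531 missed the threshold, and it was called in 6 of the 16 alternatives. Per kilobase of exon, ABCA1 RNA was 0.71 to 0.799 times ABCG1 RNA in the FaDu libraries and 0.118 to 0.204 times in the shNSUN2 libraries. The groups did not overlap in this ratio, which was not tested.

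Neither LXR receptor gene was called in the main edgeR fit. NR1H2, which encodes LXR beta and is broadly expressed, had 73.7 to 81.2 CPM in FaDu and 91.2, 100 and 135 CPM in shNSUN2 replicates 1, 2 and 3. It was above FaDu in every library (log2 fold 0.482, SE 0.162, edgeR adjusted p = 0.0763) without passing the test. NR1H3, which encodes LXR alpha, was low and overlapped, at 7.42 to 9.47 against 6.63 to 8.04 CPM (log2 fold -0.21, SE 0.174). Its counts are uncertain, since its exons share 189 bases with ACP2 on the opposite strand (9308 estimated counts, beside 2971 for NR1H3). The level of NR1H2 per kilobase was 9.39 to 12.8 times that of NR1H3 in FaDu and 16.6 to 20.3 times in shNSUN2.

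**Figure D3:**
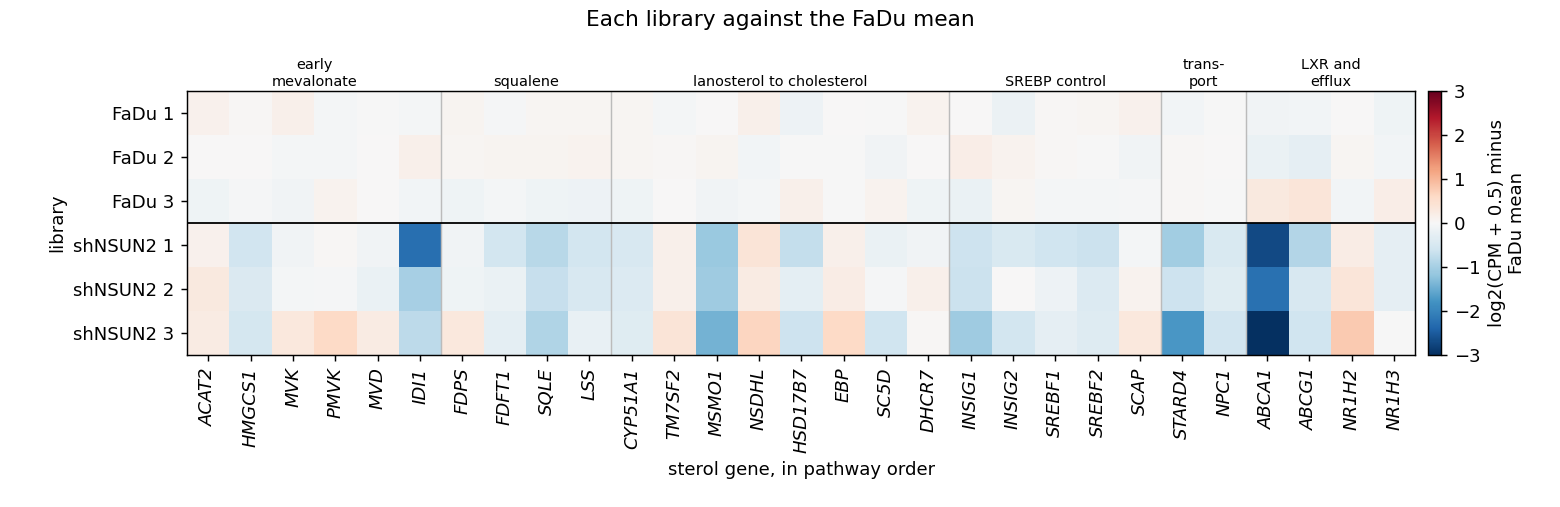
Each library (rows) against the FaDu mean for every sterol gene (columns, pathway order), as the difference in log2(CPM + 0.5), blue lower and red higher. ABCA1, MSMO1 and SQLE are blue in all 3 shNSUN2 libraries, IDI1 is lowest in replicate 1 and STARD4 in replicate 3, and NSDHL, EBP and NR1H2 are reddest in replicate 3.

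Beyond the 29, 22 other sterol genes were listed, of which 19 were tested. Of these, 2 fell and 2 rose, shares near the 9.97% and 8.54% of all genes, with a median log2 fold of 0.085. LIPA, the lysosomal lipase that frees cholesterol from its esters, had 70.9 to 84.3 CPM in FaDu and 42.7 to 43.4 in shNSUN2 (log2 fold change -0.868, SE 0.118, edgeR adjusted p = 0.00332). It is known to act just before NPC1. ACAT1, the mitochondrial thiolase, fell from 46.3 to 50.1 CPM to 23.9 to 29.3 (log2 fold -0.909, SE 0.13). SPRING1, a cofactor needed for SREBP cleavage, rose from 76.7 to 81.1 CPM to 124 to 133 (log2 fold 0.718, SE 0.105, edgeR adjusted p = 0.00432), and was called in all 16 alternatives. LBR, a sterol reductase of the nuclear envelope, rose by 0.442 (SE 0.119), a call lost in 9 of the 16. TM7SF2, its counterpart among the 29 with the same reaction, had a log2 fold of 0.257 (SE 0.171) and was not called.

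Of 13 known SREBP-1 fatty acid targets, 4 fell and none rose in the main edgeR fit, beside 9.97% and 8.54% of all genes. Their median log2 fold was -0.24, with 7 of the 13 below 0 and 6 above. At an unadjusted p under 0.05, 6 were lower and none higher, beside 17.3% and 16.4%. With the GC content and length offset 4 were called lower and 1 higher, beside 11.9% and 14.6% of all genes. SCD, the stearoyl-CoA desaturase, fell by 1.43 (SE 0.146) on the log2 scale, and ACSS2, which makes acetyl-CoA from acetate, fell by 1.42 (SE 0.121). The desaturase FADS1 fell by 0.726 (SE 0.114) and FADS2 fell by 0.892 (SE 0.193), and the call of FADS2 was lost without FaDu replicate 1 or 2 or shNSUN2 replicate 1. Of 14 other LXR targets and partners, 11 were tested, and PLTP, a phospholipid transfer protein, fell from 4.31 to 5.41 CPM to 1.14 to 2.21 (log2 fold -1.48, SE 0.276, edgeR adjusted p = 0.0111). It was the only one of the 11 called lower, a share near the 9.97% of all genes, and none rose in the main edgeR fit. At an unadjusted p under 0.05, 1 was higher and 2 lower, beside 16.4% and 17.3% of all genes.

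GC content went with the fold among the 29. The 10 genes called lower had a median transcript GC content of 42.0%, the 19 not called 57.4%, and all genes tested 49.3%. Across the 29 genes the Spearman rho of fold and GC content was 0.61, against 0.07 over 19033 genes tested, where genes are not independent replicates. In shNSUN2, replicate 3 differed from replicates 1 and 2 with GC content at a rho of 0.425, the largest such value of the 6 libraries. Replicate 3 was the highest shNSUN2 library for 14 of the 29 genes, whose median GC content was 58.7%, and the lowest for 8, with a median of 40.5%. Replicate 2 was also the highest for 14 and was the lowest for 5. Replicate 1 was the highest for 1 and the lowest for 16. With an offset for GC content and length in each library, 11 of the 29 were called lower and 3 higher (NSDHL, EBP and NR1H2), beside 11.9% and 14.6% of all genes, and rho was 0.54. LSS, HSD17B7 and ABCG1 gained a lower call there, while IDI1 (log2 fold -1.14) and CYP51A1 (-0.349) lost theirs. Without shNSUN2 replicate 3, 10 were called lower, beside 11.0% of all genes, and the median fold of the 29 was -0.352. That median was -0.263 without shNSUN2 replicate 1 and -0.416 without shNSUN2 replicate 2.

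**Figure D4:**
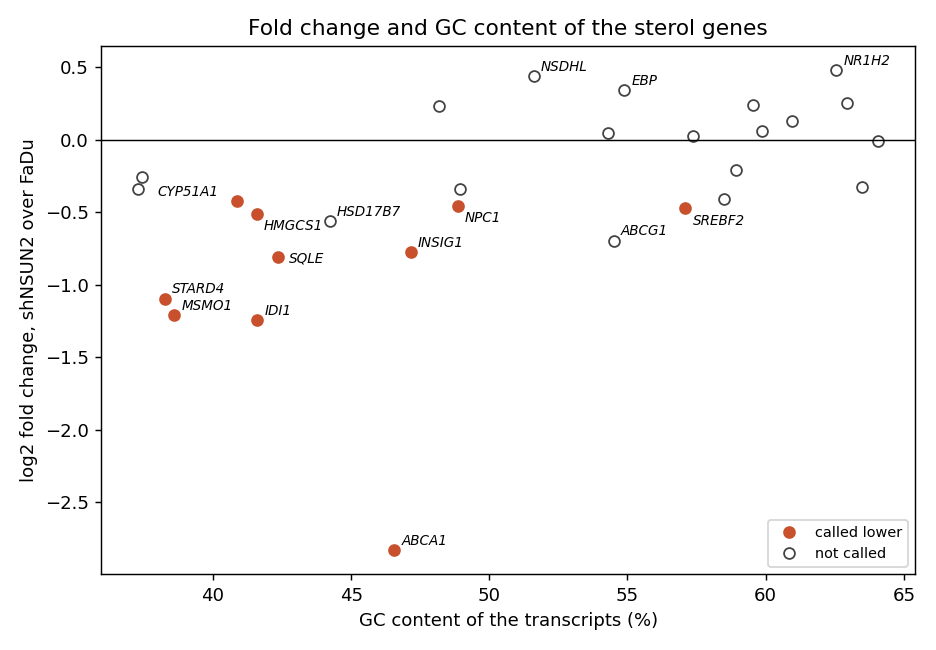
Log2 fold change of the 29 sterol genes against the GC content of their transcripts (percent), with the 10 genes called lower filled. All of these but SREBF2 lie at 48.9% GC or lower, and the genes above 0 lie at 48.2% and higher.

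**Figure D5:**
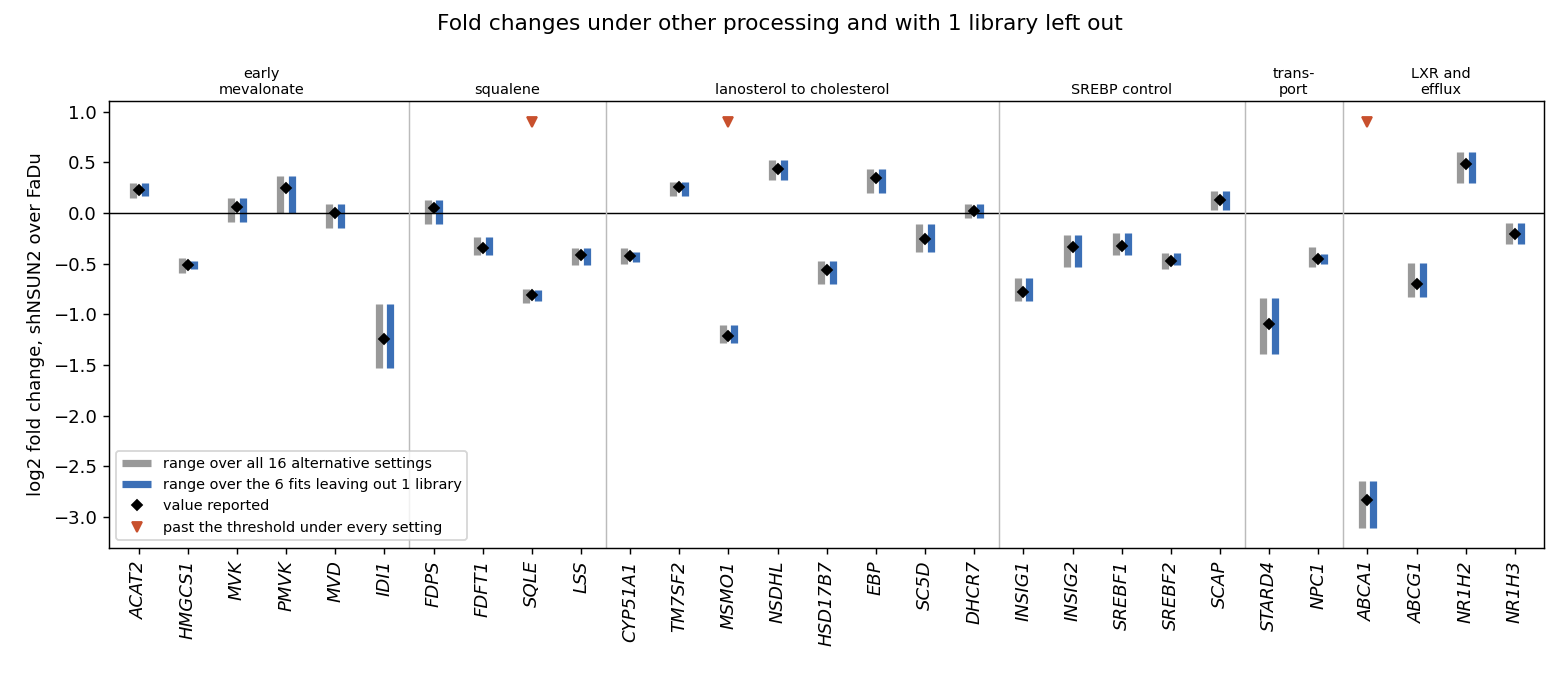
Log2 fold change of each gene as reported (diamond), its range over all 16 alternative settings (grey) and its range over the 6 fits that leave out 1 library (blue). Triangles mark SQLE, MSMO1 and ABCA1, the genes past the threshold under every setting, and IDI1 and STARD4 have wide ranges, from -1.53 to -0.901 and from -1.39 to -0.836.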

How the data were processed

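RNA was sequenced in 3 shNSUN2 and 3 FaDu libraries. The authors deposited 1 table of estimated counts per Ensembl gene, in whole numbers, used as they stand. HISAT2 2.0, StringTie 1.3.0 and Bowtie 0.12.2 are named, per the submitters' processing notes, with no role, as is a mouse build, although the identifiers are human. For the human build, annotation, strandedness and RNA selection, the sources used here give nothing. The value 4 was 3.25 to 3.81 times as frequent as the mean of 3 and 5, so 1 fragment is often worth several units and low values carry more error than their size shows. No binomial interval is given for that reason.

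Symbols came from a table of gene names (58472 identifiers found there) and GENCODE 29 on GRCh38 (58552 matched), which also gave positions, exonic lengths and GC content. The main test was the quasi-likelihood test of edgeR 4.0.16 (R 4.3.3; glmQLFit, robust, and glmQLFTest), with TMM scaling and filterByExpr (minimum count 10, minimum total 15; 19081 genes kept), group as the only term, two-sided, Benjamini-Hochberg over all genes. The SE is the size of the log2 fold change divided by the square root of F. Values are mean ± SD or single libraries. Alternatives used DESeq2 1.42.0, limma 3.58.1, other scalings and filters, a replicate block, a GC content and length offset, and each library left out. The difference of a library from the FaDu mean used a pseudocount of 0.5 CPM.

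The members and lists were chosen with earlier results of these data known. All 29 members are named, with NSUN2 and up to 4 called genes of each other list. SREBF2's promoter was picked after its values and motifs were seen. Some genes of the pathway are not reported here. The edgeR script was tested on simulated data with known changes. It called 0.06% of unchanged genes, and 0.4%, 29.6% and 73.6% of genes with log2 folds of 0.5, 1 and 2. Few genes changed in the simulated data, so these shares do not carry over to the 29. A gene not called may still have changed.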

Additional observations from a re-analysis of the deposited data

How the results depend on the processing

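SQLE, MSMO1 and ABCA1 were called lower in all 16 alternative fits, and the other 7 called members kept their direction but lost the call in 2 to 8 of them. Members called lower numbered 3 to 10 with 1 library left out, lowest without FaDu replicate 1 or 2. The numbers of the replicates do not pair the libraries (correlations of same-numbered deviations -0.036, 0.024 and 0.007), and only FaDu replicate 3 among the FaDu libraries and shNSUN2 replicate 2 among the shNSUN2 libraries correlated best with their own number. With a replicate block 6 members were called lower, beside 1401 of all genes lower and 969 higher, and with the block and the GC content and length offset also 6, beside 1636 lower and 1860 higher. Members called higher were 2 with DESeq2 and 3 with the GC content and length offset, which called 2788 genes higher, 55.3% of its calls against 46.1% in the fit reported (36.2% with upper-quartile scaling). Leaving out 1 library gave 478 to 2090 genes higher and 861 to 2181 lower. Members near 0 changed sign. With upper-quartile scaling MVK was at -0.02, FDPS at -0.034 and DHCR7 at -0.054, and with library totals only FDPS was at -0.013 and DHCR7 at -0.028. DHCR7 was at -0.008 with no filter, -0.004 with at least 1 CPM in 3 libraries, -0.005 with the offset and -0.011 with the replicate block and offset. With 1 library left out MVK ran from -0.087 to 0.147, MVD from -0.153 to 0.089, FDPS from -0.11 to 0.13 and DHCR7 from -0.045 to 0.092. No scaling moved the median of all genes by over 0.1. The cause of lost calls was not tested.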
